A study of Mus musculus with 3 samples.

Results

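The forkhead transcription factors of the mouse were followed in an RNA immunoprecipitation experiment with the m6A reader YTHDF2. Members were the genes of the count table whose symbol is Fox followed by a letter from a to s, a number and at most 1 more letter. This rule took 44 of the 49997 genes, from 19 subfamilies, and used no measured value. Opposite-strand genes such as Foxo6os were not members.

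Forkhead factors share a winged-helix DNA-binding domain named after the fork head gene of Drosophila, and many of their genes have few introns. FoxA and FoxD members open or hold chromatin at enhancers in early lineages. Insulin and AKT signaling keep most FoxO members out of the nucleus. FoxM1 drives genes of mitosis, and FoxH1 carries SMAD complexes of Nodal signaling to DNA. In pluripotent cells Foxd3 is known as a factor needed to maintain the state. YTHDF2 binds RNA carrying N6-methyladenosine (m6A), which is often found near the stop codon, and promotes the decay of that RNA.

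RNA immunoprecipitation sequencing (RIP-seq) sets RNA recovered with a protein against an input of the same kind of cells. The material was E14 mouse embryonic stem cells (ESCs) that had received doxycycline (Dox) for 24 h, sequenced as 1 Input and 2 YTHDF2 IP libraries. In the system of the study the cells carry a Dux transgene switched on by Dox and a tdTomato reporter driven by the Mervl promoter, so the Input shares both with the IP libraries, and cells without Dox or with a control antibody were not analysed here. The Input held 36986994 counts in all, against 35259827 and 35888743 in IP replicates 1 and 2. Counts of a gene given as a triplet below stand in the order Input, IP replicate 1, IP replicate 2. All 7 ESC markers examined were counted in each library, with summed levels between 7096 and 7673 CPM (counts scaled to the library total). The 4 fibroblast markers summed to between 15.9 and 29.1 CPM, with means from 0 for Col3a1 to 18.7 CPM for Thy1. The 5 endoderm markers summed to between 9.08 and 15.4 CPM. The Input has no replicate, and nothing states that the IP libraries came from separate cultures, so each p-value measures only the spread between the IP libraries, which may be technical.

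Forkhead RNA made up a larger share of the IP libraries than of the Input. The 44 genes held 28878 Input counts against 48365 and 48018 in IP replicates 1 and 2. These were 0.0781% of all counts in the Input (95% Wilson interval 0.0772 to 0.079), 0.137% in IP replicate 1 (0.136 to 0.138) and 0.134% in IP replicate 2 (0.133 to 0.135), with intervals that cover counting error only and are too narrow even for that, since mates were counted separately. Both IP libraries lay above the Input, which has no replicate to judge the difference by. The 10 deepest members supplied 82.6% of the forkhead counts of the Input and 86.8% and 86.7% of those of IP replicates 1 and 2. Reads were found for 39 members, and 22 members reached a mean of 1 CPM over the 3 libraries.

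Each of 19601 genes was tested for a difference between IP and Input with the quasi-likelihood method of edgeR. Calls of enriched or depleted genes required more than a 2-fold difference with the adjusted p-value under 0.05. Of the 44 members, 33 had enough counts to be tested. Enrichment was called for 8 of them, or 24.2%, against 15.0% of all genes tested. Depletion was called for 0 of them, against 13.0% of all genes. At an unadjusted edgeR p-value under 0.05, 0 members were lower by more than 2-fold. DESeq2 called 0 members depleted, against 10.3% of all genes. At any fold, 16 members were higher and 2 were lower at an adjusted p-value under 0.05, against 28.4% and 28.9% of all genes. Both IP libraries lay above the Input for 26 of the 33, against 44.2% of all genes, and below it for 5, against 45.3%. Of the 14 tested members whose mean reached 10 CPM, 4 were enriched, and at any fold 10 were higher and 2 lower, where all genes of that depth gave 15.7%, 39.3% and 42.2%.

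The tested members had a median log2 fold change of 0.65, also with the 2 members absent from the Input set at their lower bound, while that of all tested genes was 0.01. For the 14 deeper members it was 0.63, beside -0.04 for all genes of that depth. Of the 33 tested members, 7 had fewer than 10 counts in the Input. Since every tested gene reached 10 counts in at least 1 library, these 7 had to be higher in the IP, and counts over the tested members are given as a description. Of the 8 enriched members, 5 remained after removal of the trend of fold change on exonic GC content, which is 15.2% of the 33 and close to the 14.2% of all genes called there. With DESeq2 5 remained, or 15.2% against 12.5% of all genes. With a fixed dispersion of 0.1, 4 remained and Foxd4 and Foxf1 were added, so that 18.2% of the members were called against 8.05% of all genes. At any fold, 10 members were higher and 3 lower without the GC trend (27.7% and 27.3% of all genes), 11 and 1 with DESeq2 (22.8% and 21.8%) and 6 and 0 with the fixed dispersion (8.05% and 7.81%). The median of the members was 0.44 without the GC trend.

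**Figure D1:**
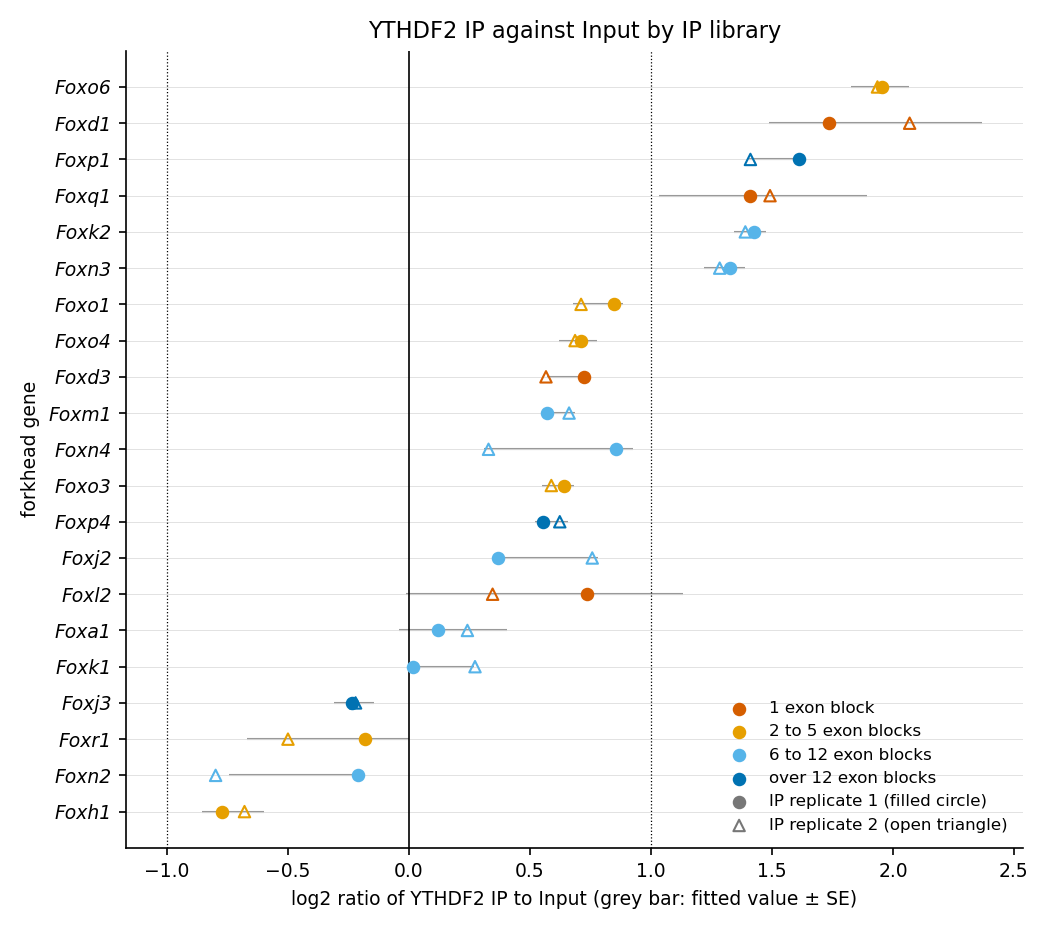
Log2 ratio of each YTHDF2 IP library to the Input (x axis) for 21 forkhead members with a mean of at least 1 CPM (y axis), ordered by the fitted log2 fold change. Filled circles are IP replicate 1, open triangles IP replicate 2, grey bars the fitted value ± SE, colors the number of exon blocks and dotted lines a 2-fold difference; Foxo6 lies highest at 1.95, Foxh1 lowest at -0.73, and 6 of the 21 lie past 2-fold in both IP libraries.

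The level of each transcript was set on a scale of CPM per kb of merged exon, so that genes could be compared. In bulk RNA, fewer cells with a transcript and less of it per cell cannot be told apart. Foxd3 had the highest level in every library, with 29.3 CPM per kb in Input RNA against 51.8 and 46.3 in IP replicates 1 and 2. Foxp4 (22.8), Foxm1 (19.6), Foxo3 (15.7) and Foxk2 (14.3) followed in the Input, for which no replicate spread exists. The order changed in the IP, where Foxk2 stood second with 41.1 and 39.9 CPM per kb, ahead of Foxp4 with 35.8 and 37.5.

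Foxo6 moved from place 11 in the Input, with 4.59 CPM per kb, to place 7 in the IP, with 19.1 and 18.8. Foxp1 moved from place 18 to place 14, and its level per kb is low partly by construction, since the merged exons of all its isoforms span 20340 bases. Foxh1 went the other way, from place 8 with 7.87 CPM per kb in the Input to place 11 with 4.93 and 5.24 in the IP. In the IP order, neighbors whose 2 libraries overlapped were Foxk1 and Foxn2, Foxn2 and Foxp1, Foxa1 and Foxj2, Foxr1 and Foxn4, and Foxn4 and Foxd1. All other neighbors among the 21 members shown did not overlap between their IP libraries, although several gaps were small, as for Foxn3 with 10.8 and 10.5 above Foxj3 with 10.3 and 10.4.

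**Figure D2:**
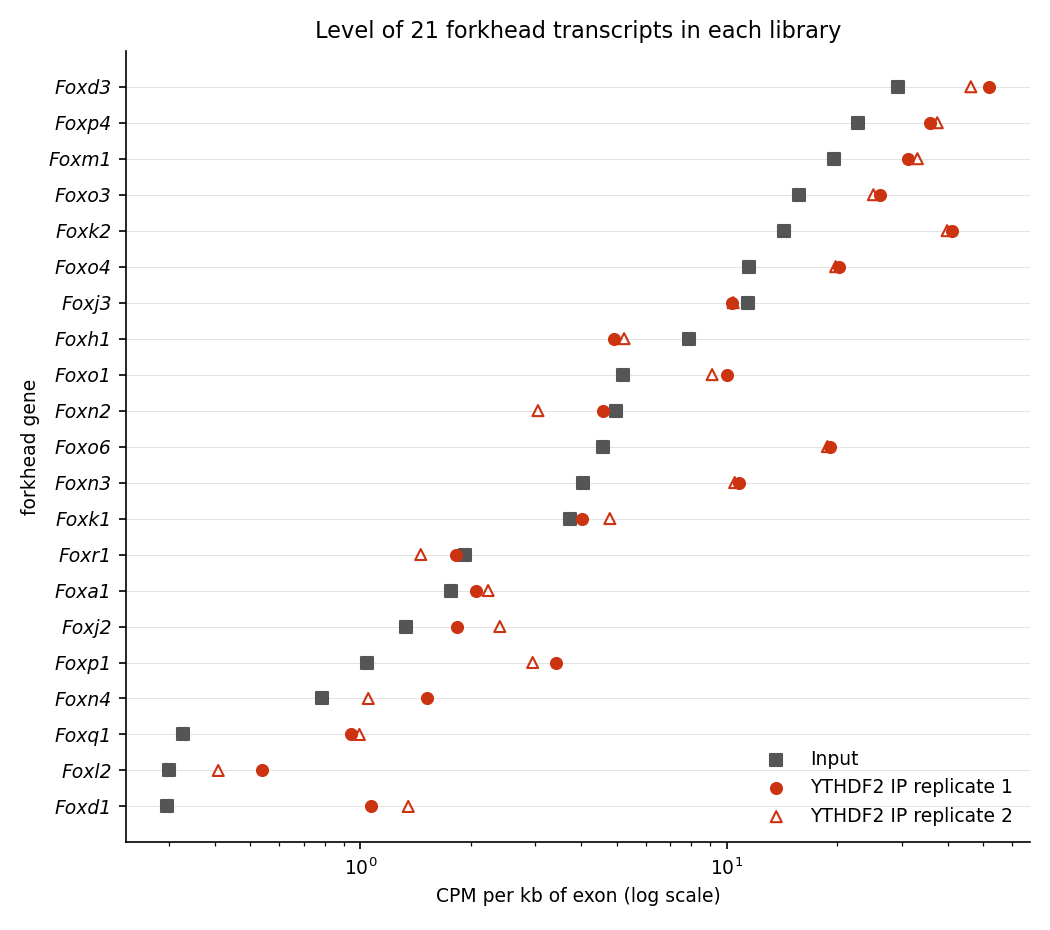
Level in CPM per kb of exon (x axis, log scale) of 21 forkhead members with a mean of at least 1 CPM (y axis), ordered by the Input. Grey squares are the Input, red circles IP replicate 1 and open triangles IP replicate 2; Foxd3 is highest in all 3 libraries, and Foxh1, Foxj3, Foxr1 and Foxn2 are the members whose IP values both lie at lower levels than the Input.

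The transcripts were also searched for GGACT, a strong form of the m6A consensus, in the 200 bases centered on the stop codon. The search used the transcript strand of 1 RefSeq transcript a gene on GRCm38.p6, the assembly of mm10, and GGACT was counted as a subset of the shorter GGAC. Of 41 members with a whole window, 11 held it (26.8%), beside 23.7% of 18016 protein-coding genes. Of the 9 tested members with the motif, only Foxo6 and Foxd1 were called enriched, where 24.2% of all tested members were. The stretches below are shown to compare Foxo6 and Foxd1 with Foxo4 and Foxj2, which were not called. Capitals mark GGACT, and all are in the coding sequence except the second of Foxd1, which lies in the 3′ UTR.
Foxo6: gtgacgaaatGGACTtcaacttcga
Foxo4: gtgagggactGGACTtcaactttga
Foxd1, first: gccgcgctggGGACTctgcaccaag
Foxd1, second: agcgaaggtaGGACTcccggcttct
Foxj2: acttcgactgGGACTtgatcactta
The stretch of Foxo6 lies at chr4:120267990-120268014 on the minus strand, with its center 85 bases before the stop codon. That of Foxo4 lies at chrX:101259204-101259228 on the plus strand, 25 bases before the stop codon, and has the same base as Foxo6 at 21 of 25 positions. A further GGACT of Foxo4 lies in the lower-case part of its line. The stretches of Foxd1 lie at chr13:98355913-98355937 and chr13:98356013-98356037 and that of Foxj2 at chr6:122842827-122842851, all on the plus strand.

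A match is a run of letters and not a mapped m6A site, and m6A was not measured in these libraries. Among the tested members with a whole window, the median log2 fold change was 0.70 for the 9 with GGACT there and 0.65 for the other members. Over all tested genes with a whole window the medians were 0.17 with the motif and -0.02 without it. Enrichment past 2-fold occurred without the motif, as in Foxk2, Foxn3 and Foxp1, and Foxo3 and Foxo1 had none in this window although Foxo4 and Foxo6 did.

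The FoxO subfamily was higher in the IP in all 4 members. Foxo6 (chr4:120267078-120287261, minus strand, 3 exon blocks) had 452 Input counts against 1791 and 1792 in IP replicates 1 and 2. The fitted log2 fold change of Foxo6 came to 1.95 ± 0.12 (SE, here and below), at an edgeR adjusted p-value of 6.6e-17. The IP libraries were nearly equal and both lay far above the Input, at a fitted 3.85-fold. Foxo6 has 67.9% GC in its exons, second only to Foxe1 among the 33 tested members, and with the GC trend removed its log2 fold change was 0.69 (adjusted p = 3.12e-06), which is under 2-fold.

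Foxo3, the deepest FoxO member and a regulator of quiescence and stress resistance, had 3933 Input counts against 6253 and 6123 IP counts (log2 fold change 0.61 ± 0.07, edgeR adjusted p = 2.18e-10). Foxo1, a regulator of metabolism that also acts in pluripotent cells, had 1071, 1965 and 1816 counts (0.78 ± 0.10, edgeR adjusted p = 3.41e-08). Foxo4 had 2147, 3588 and 3578 counts (0.70 ± 0.08, edgeR adjusted p = 4.65e-10). These 3 were higher in both IP libraries by less than 2-fold, and their log2 fold changes stayed between 0.44 and 0.74 without the GC trend, whereas with the fixed dispersion of 0.1 none of the 3 passed the test, with adjusted p-values from 0.377 to 0.499. The difference between Foxo6 and the other FoxO members was not tested.

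Foxk1 and Foxk2, paralogs that bind DNA in the nucleus of most cells and repress autophagy genes, gave unlike values. Foxk2 (chr11:121259987-121309900) had the most counts of the members in both IP libraries but not in the Input, with 2834 Input counts against 7775 and 7694 in IP replicates 1 and 2 (log2 fold change 1.41 ± 0.07, edgeR adjusted p = 3.34e-20). Foxk1 had 1027, 1061 and 1285 counts (0.15 ± 0.12, edgeR adjusted p = 0.292). Both IP libraries of Foxk2 lay well above its Input, while IP replicate 1 of Foxk1 was almost level with its Input. The genes are alike in exon number, with 11 and 10 blocks, and in GC content, with 53% and 56.2%. Foxk2 remained enriched without the GC trend at 1.24, Foxk1 turned to -0.15 there (adjusted p = 0.314), and Foxk2 lost its call with the fixed dispersion (adjusted p = 0.0875). The difference between the paralogs was not tested.

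In the FoxP subfamily, whose members repress transcription as dimers, Foxp1 and Foxp4 were deep and the other 2 were nearly silent. Foxp1 (chr6:98925342-99522746, minus strand, 39 exon blocks over all isoforms), which has an isoform known from pluripotent cells, had 783 Input counts against 2444 and 2157 in IP replicates 1 and 2. Its log2 fold change was 1.52 ± 0.11 (edgeR adjusted p = 8.57e-15), and it was 1.75 without the GC trend. Counts per gene do not separate its isoforms. Foxp4 had 3497, 5241 and 5578 counts (0.59 ± 0.07, edgeR adjusted p = 1.42e-09), with 63.6% GC, and its direction turned to -0.31 (adjusted p = 0.000115) without the GC trend. Foxp1 lost its call with the fixed dispersion of 0.1 (adjusted p = 0.0653).

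Foxp3, the factor of regulatory T cells, had 0, 12 and 0 counts, and 21.8% of its exonic bases lie in exons of other genes, Ccdc22 among them. Foxp2, known for its role in speech and motor circuits, had 0, 0 and 2 counts. Neither was tested.

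The FoxN subfamily held 1 enriched member. Foxn3 (chr12:99190081-99563667, minus strand), a repressor tied to the DNA damage checkpoint, had 1327 Input counts against 3394 and 3346 in IP replicates 1 and 2 (log2 fold change 1.31 ± 0.08, edgeR adjusted p = 2.4e-16). It was enriched at 1.45 without the GC trend and lost the call with the fixed dispersion (adjusted p = 0.115). Foxn2 had 1484, 1307 and 883 counts, lower in both IP libraries but unequally so, with log2 ratios of -0.21 and -0.80. This was the widest gap between the IP libraries among members of at least 10 CPM, and its fitted value of -0.48 ± 0.27 did not pass the test (edgeR adjusted p = 0.221) and was 0.10 (adjusted p = 0.804) without the GC trend. Foxn4, a factor of retinal and spinal progenitors, had 106, 196 and 138 counts (0.62 ± 0.31, edgeR adjusted p = 0.0868), and Foxn1, the thymus factor lost in nude mice, had 0, 2 and 4.

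Foxd3, the member most tied to pluripotency, was higher in both IP libraries but under 2-fold. It is a gene of 1 exon block at chr4:99656299-99658671, with 2569 Input counts against 4332 and 3939 in IP replicates 1 and 2 (log2 fold change 0.65 ± 0.08, edgeR adjusted p = 3.92e-09). Its exons have 64.2% GC, and without the GC trend the value turned to -0.31 (adjusted p = 0.000714). Foxd1, a factor of the kidney stroma, had 27, 93 and 119 counts (1.93 ± 0.44, edgeR adjusted p = 0.000264), at the same GC content of 64.2%, and was at 0.98 (adjusted p = 0.0558) without the trend. Foxd2 had 18, 16 and 12 counts. Foxd4 had 0, 12 and 8 counts, and against the floor of 3 counts in the Input it was at least 3.47-fold higher in the IP (edgeR adjusted p = 0.0681), which is no call. The reported directions of Foxd3 and Foxp4 thus depend on whether the GC trend is kept. With the fixed dispersion of 0.1 neither Foxd3 (adjusted p = 0.474) nor Foxp4 (adjusted p = 0.52) passed the test.

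Foxm1, the activator of mitotic genes, had 3167 Input counts against 4802 and 5188 in IP replicates 1 and 2 (log2 fold change 0.62 ± 0.07, edgeR adjusted p = 1.14e-09), and was at 0.36 (adjusted p = 2.84e-05) without the GC trend. Foxh1, the DNA-binding partner of SMADs in Nodal signaling, was the lowest of the tested members. It had 998 Input counts against 596 and 645 in IP replicates 1 and 2 (-0.73 ± 0.13, edgeR adjusted p = 6.36e-06), and it was at -0.93 without the GC trend. Both IP libraries lay below the Input, by less than 2-fold. In its exons 10.7% of bases are shared with Kifc2. Strand was not used in counting, and reads that fell on exons of both genes were left out. With the fixed dispersion of 0.1 neither Foxm1 (adjusted p = 0.497) nor Foxh1 (adjusted p = 0.387) passed the test.

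The FoxJ genes include Foxj1, the master factor of motile cilia. Foxj3 had 2513, 2181 and 2233 counts and was lower by a small amount (log2 fold change -0.23 ± 0.08, edgeR adjusted p = 0.0178), a difference that was gone without the GC trend (0.0053, adjusted p = 0.965). Foxj3 also did not pass with DESeq2 (adjusted p = 0.178) or with the fixed dispersion of 0.1 (adjusted p = 0.825). Foxj2 had 246, 324 and 431 counts (0.58 ± 0.21, edgeR adjusted p = 0.0157). It did not pass without the GC trend (adjusted p = 0.117), with DESeq2 (adjusted p = 0.156) or with the fixed dispersion (adjusted p = 0.538). Foxj1 had 26, 27 and 53 counts, with both IP libraries above the Input by unlike amounts, and did not pass the test.

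Other members of at least 1 CPM were shallow. Foxq1, a factor of hair and stomach epithelium, had 34, 93 and 100 counts and was enriched (1.46 ± 0.43, edgeR adjusted p = 0.00366), but it lost the call without the GC trend (0.89, adjusted p = 0.0772), with DESeq2 (adjusted p = 0.0689) and with the fixed dispersion (adjusted p = 0.103). Foxa1, a pioneer factor of endoderm, had 227, 252 and 278 counts (0.18 ± 0.22, edgeR adjusted p = 0.508). Foxr1 had 119, 107 and 87 counts (-0.33 ± 0.33, edgeR adjusted p = 0.415), and Foxl2, the factor that maintains ovarian identity, had 28, 48 and 37 (0.56 ± 0.57, edgeR adjusted p = 0.423).

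Among the 22 members under 1 CPM, 17 had at least 1 read. Foxa3, a factor of liver and gut, had 8 Input counts against 34 and 56 IP counts (log2 fold change 2.43 ± 0.74, edgeR adjusted p = 0.00467). Foxc1, a factor of mesenchyme and the eye, had 4, 36 and 26 counts (2.88 ± 0.99, edgeR adjusted p = 0.0122). Both were called enriched by edgeR, both had under 10 counts in the Input, and neither passed with DESeq2 (adjusted p = 0.0601 and 0.0751). Foxf1, a factor of lateral mesoderm, had 0, 6 and 13 counts and was at least 3.28-fold higher in the IP (edgeR adjusted p = 0.078).

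Foxe1, the thyroid factor, had 6, 16 and 39 counts and did not pass the test (edgeR adjusted p = 0.0631). Foxc2 had 12, 2 and 20 counts and Foxr2 10, 30 and 10, so that the IP libraries of each fell on different sides of the Input or level with it. Foxa2, the endoderm and node factor, had 6, 19 and 8 counts and Foxf2 had 6, 14 and 12, with both IP libraries above the Input and no call. Foxb2 had 0, 6 and 2 counts, Foxs1 had 0, 2 and 4, and Foxi3 had 2, 0 and 0, and none of these was tested. No read was counted in any library for Foxi1, Foxi2, Foxb1, Foxl1 and Foxe3, which allows up to 0.0851 CPM in the shallowest library, IP replicate 1.

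The spread between the IP libraries followed depth. The median absolute difference between the log2 ratios of the IP libraries was 0.08 for the 14 members of at least 10 CPM, 0.33 for the 8 members of 1 to 10 CPM and 0.94 for the 11 tested members under 1 CPM. The largest was 3.01, for Foxc2. The SE ran from 0.07 to 0.27 in the deepest of these classes and from 0.61 to 3.04 in the shallowest. In the shallowest class 2 of 11 members were enriched, beside 7.29% of all genes under 1 CPM. These were Foxa3 and Foxc1, which had under 10 Input counts and so had to be higher in the IP to be tested. DESeq2 called neither.

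Forkhead genes have few exons. Overlapping exons of all isoforms were merged into blocks, and 14 of the 44 members (31.8%) had 1 block, against 10.8% of 21896 protein-coding genes. Another 15 members had 2 to 5 blocks, 10 had 6 to 12 and 5 had over 12. The members of 1 block were mostly shallow, with a median of 0.50 CPM, and 10 of them were tested. Of these 3 were enriched, namely Foxd1, Foxq1 and Foxc1, or 30%, beside 34.1% of the 510 tested coding genes of 1 block.

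With a mean of at least 1 CPM, the median log2 fold change of the 5 members of 1 block was 0.65, beside 0.81 for coding genes of 1 block. The 6 members of 2 to 5 blocks had a median of 0.66, beside 0.52. For the 8 members of 6 to 12 blocks it was 0.60, beside -0.02, and for the 3 of over 12 blocks 0.59, beside -0.23. Over all tested members, shallow ones included, the medians fell from 1.05 for 1 block to 0.78, 0.62 and 0.59, as those of coding genes fell from 0.75 to 0.51, -0.01 and -0.21, and whether the 2 patterns differ was not tested. Foxk2, Foxn3 and Foxp1, with 11, 12 and 39 blocks, lay above the upper quartile of the coding genes of their class, as did Foxp4 with 18, Foxo6 with 3 and Foxd1 with 1. Spearman correlations of log2 fold change with exon number were -0.25 over the 33 tested members and -0.27 over 15223 coding genes, and -0.12 and -0.29 over the 22 members and 12976 coding genes of at least 1 CPM, where all points share the same 3 libraries.

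**Figure D3:**
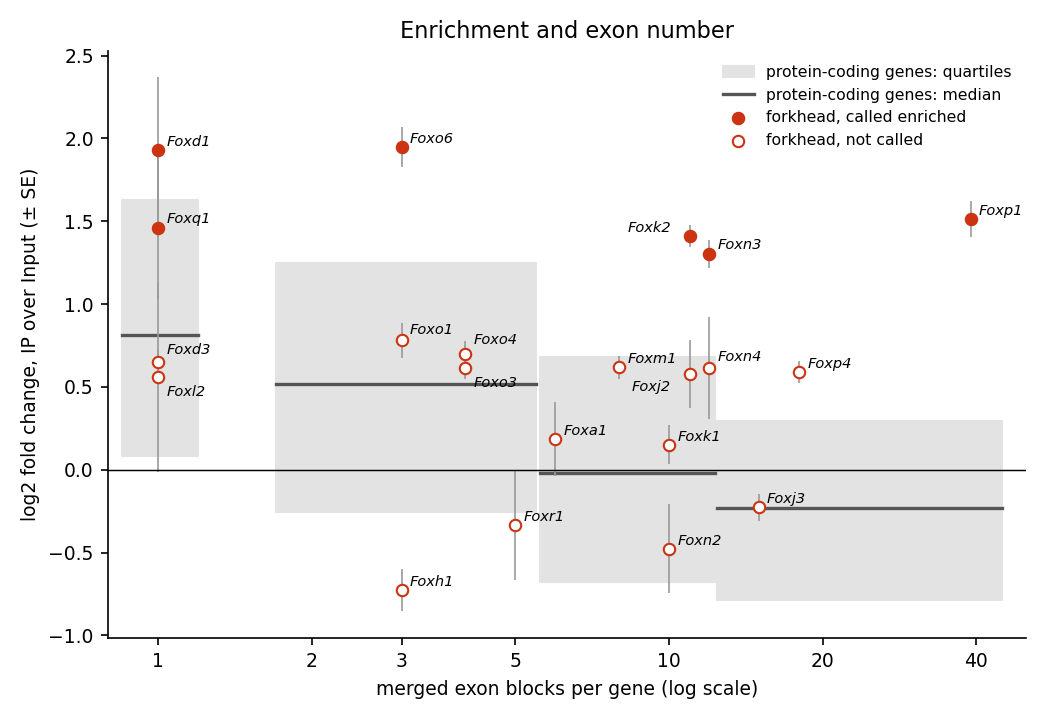
Fitted log2 fold change ± SE of IP over Input (y axis) against merged exon blocks (x axis, log scale) for 21 forkhead members with a mean of at least 1 CPM. Grey lines and boxes give the median and quartiles of protein-coding genes of at least 1 CPM in 4 classes of exon number; the line falls from 0.81 to -0.23, and Foxd1, Foxo6, Foxk2, Foxn3, Foxp1 and Foxp4 stand above the boxes of their classes.

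Forkhead exons were also rich in GC, with a median of 55.8% over all 44 members and a range from 39.4% in Foxr2 to 69.2% in Foxe1, against 50.4% for tested coding genes. The correlation of log2 fold change with GC content was 0.36 over 15184 coding genes and 0.16 over the 33 tested members, and 0.39 and 0.30 over the 12945 coding genes and 22 members of at least 1 CPM. Foxp1 and Foxn3, with 46.4% and 47.8% GC, gained from removal of the trend, Foxk2 at 53% changed little, and the largest drops among members of at least 1 CPM were those of Foxo6, Foxd3 and Foxd1. After removal the 5 members still enriched were Foxk2, Foxn3, Foxp1, Foxa3 and Foxc1, a share of the tested members close to that of all genes called (15.2% and 14.2%). Over coding genes both GC content and exon number moved with the fold change, and beyond the removal of the GC trend their part in the values of the members was not tested. GGAC occurred 4.39 times per kb in the median member and 4.04 times in the median tested coding gene.

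**Figure D4:**
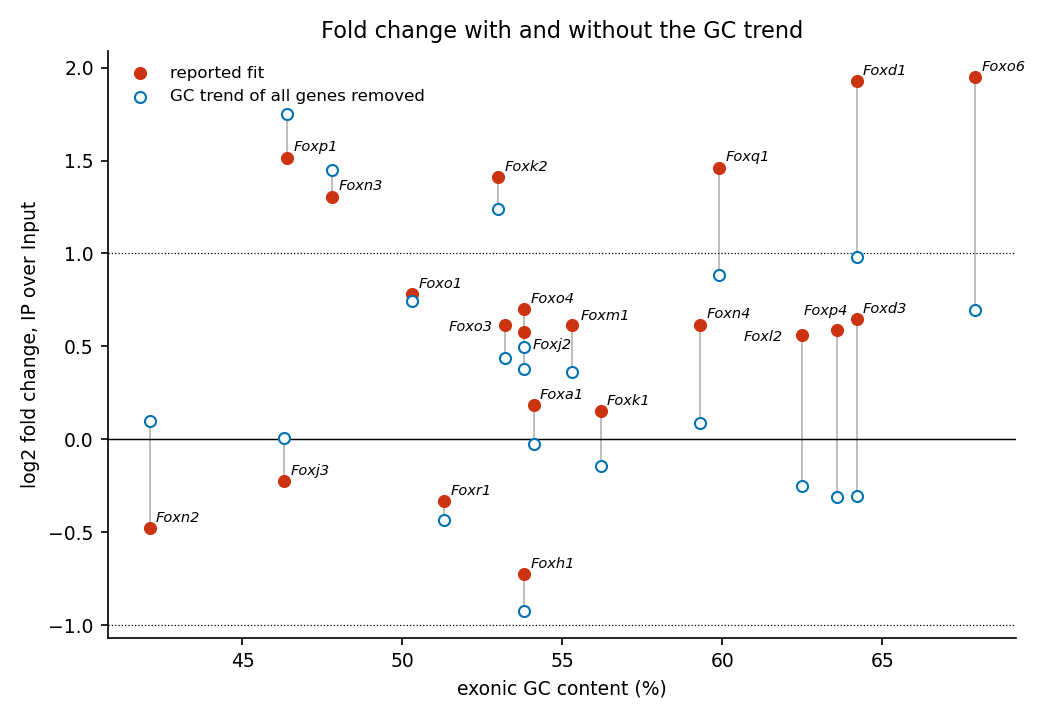
Log2 fold change of IP over Input (y axis) against exonic GC content in % (x axis) for 21 forkhead members with a mean of at least 1 CPM, as reported (red) and after the GC trend of all genes was removed (open blue), with dotted lines at 2-fold. Foxo6 moves from 1.95 to 0.69, Foxd3 and Foxp4 cross 0, and Foxp1 moves up to 1.75.

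By position, Foxq1, Foxf2 and Foxc1 lie together on chromosome 13 and Foxf1, Foxc2 and Foxl1 on chromosome 8. On chromosome 13, Foxq1 and Foxc1 were called enriched, as were 15.0% of all genes, and Foxf2 (edgeR adjusted p = 0.522) was not. Foxc1 had 4 Input counts, and Foxq1 lost its call without the GC trend. On chromosome 8 no member was called, but Foxf1 had 0 Input counts, Foxc2 had 12, 2 and 20 counts, and Foxl1 had no read and was not tested. Whether the 2 places differ was not tested. Exons of 9 members share bases with exons of other genes, most of all Foxp3 and Foxh1. Of the opposite-strand genes, Foxd2os had 0, 14 and 26 counts, at least 6.91-fold higher in the IP (edgeR adjusted p = 0.00652). With 0 Input counts Foxd2os entered the test only through its IP counts, so it had to be higher in the IP. Foxd2 itself was not higher in either IP library, and Foxl2os had 13, 8 and 4 counts.

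Genes that work with forkhead factors were read from the same fit, in which 15.0% of all genes were enriched and 13.0% depleted, with a median log2 fold change of 0.01. Of 12 partners and targets of FOXH1, 4 were enriched (33.3%) and 0 depleted, with a median log2 fold change of 0.81. They included Smad3, a signal transducer of Nodal, at 1.52 ± 0.11 (edgeR adjusted p = 1.21e-14) and Gsc, a gene of the organizer, at 1.49 ± 0.18 (edgeR adjusted p = 2.86e-09). Foxh1 itself was lower, as were Smad2 (-0.35) and Smad4 (-0.39). At an edgeR adjusted p-value under 0.05, 2 of the 12 were lower at any fold (16.7%, against 28.9% of all genes). An unadjusted p-value under 0.05 gave the same 2 at any fold and 0 by more than 2-fold. DESeq2 called 0 depleted, against 10.3% of all genes.

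Of 20 targets of FOXM1, 0 were enriched and 7 depleted (35%, against 13.0% of all genes), with a median of -0.76, while Foxm1 was at 0.62. At an unadjusted edgeR p-value under 0.05, 2 of the 20 were higher at any fold and 0 by more than 2-fold. An edgeR adjusted p-value under 0.05 gave 2 higher and 14 lower at any fold, against 28.4% and 28.9% of all genes. DESeq2 called 0 enriched, against 12.5% of all genes. The lowest were Kif20a (-3.24 ± 0.15, edgeR adjusted p = 3.15e-20) and Ube2c (-2.30 ± 0.06, edgeR adjusted p = 1.52e-27), a kinesin and a ubiquitin-conjugating enzyme of mitosis. Of the 26 upstream regulators of FOXO, 1 was enriched (3.85%, against 15.0% of all genes), Pik3r2 (1.29 ± 0.08, edgeR adjusted p = 5.07e-17), a regulatory subunit of PI3K. Depletion was called for 5 of them (19.2%, against 13.0% of all genes), 3 of which are among the 5 listed genes of 14-3-3 proteins, the cytoplasmic anchors of FOXO, while Ywhab (-0.78) and Ywhag (-0.08, edgeR adjusted p = 0.221) were not called. Ywhae was lowest at -2.01 ± 0.05 (edgeR adjusted p = 5.59e-29). Of 23 tested targets of FOXO, 5 were enriched (21.7%) and 4 depleted (17.4%), near the shares over all genes. The highest were Trib3 (2.10 ± 0.11, edgeR adjusted p = 2.76e-19) and Bbc3 (1.68 ± 0.09, edgeR adjusted p = 2.36e-18), and Cat was lowest at -1.84 ± 0.09 (edgeR adjusted p = 2.85e-17).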

How the data were processed

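Per the labels and methods, RNA was taken from E14 ESCs treated with Dox and recovered with anti-YTHDF2; the methods describe an IP from cleared lysate and the labels an IP from Trizol-extracted RNA. The values are raw counts deposited by the authors, which per the file headers come from featureCounts 2.0.3 and the RefSeq exons of mm10. Each mate was counted on its own and strand was not used; multi-mapping and multi-gene reads were left out by default. The submitters' processing notes name fastp 0.19.4, HISAT2 2.2.1 and DESeq2 1.40.2.

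The 49997 genes were filtered with filterByExpr and scaled by TMM in edgeR 4.0.16 (R 4.3.3). IP was tested against Input with robust glmQLFit and glmQLFTest on 1 residual degree of freedom, with Benjamini-Hochberg adjustment. The SE of a fitted value was derived from the test, as the absolute log2 fold change divided by the square root of the F statistic. Dispersion over all genes was 0.00538, or 7.33% as a coefficient of variation. DESeq2 1.42.0 was an alternative, and trends on GC content or length were lowess curves over all tested genes, entered as offsets in edgeR. Single-library log2 ratios used 0.5 added to each count, and bounds a floor of 3 counts in the Input on the scale of total counts. The test was run first on simulated counts. The start and end of all 44 members matched RefSeq on GRCm38.p6. Foxd3 and Foxp4 have exon copies on patch contigs, which were left out of length, exon number and GC content. Members of at least 1 CPM were named with full statistics, others with counts, and of each pathway list at most the 2 highest and 2 lowest called genes of at least 10 CPM, besides Smad2, Smad4, Ywhab and Ywhag, named after their values were seen. Members and lists were chosen with earlier results of these data known. Of the marker lists, 3 mesendoderm, 3 neuroectoderm and 4 2C-like markers summed to between 27.1 and 56.3, 16.3 and 41.6, and 1642 and 2728 CPM. Counts over members include 1 member that is not reported here by itself or drawn in the plots.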

Additional observations from a re-analysis of the deposited data

How the results depend on the processing

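The forkhead median was 0.744 under total count scaling and 0.437 without the GC trend, beside medians of all tested genes of 0.102 and 0.0112. Enriched members numbered 5 without the GC trend, where 2790 genes were enriched in all, and 5 with DESeq2, where 2441 were. The fixed dispersion of 0.1 left 1577 enriched and 1531 depleted genes in all. Of the 8 enriched members, removal of the GC trend lost Foxd1, Foxo6 and Foxq1, DESeq2 lost Foxa3, Foxc1 and Foxq1, and the fixed dispersion lost Foxk2, Foxn3, Foxp1 and Foxq1 and added Foxd4 and Foxf1, so that each of the 8 lost its call under at least 1 alternative. The cause of the losses was not tested. Without the GC trend 3 members that had passed at any fold changed sign, namely Foxd3 (-0.306), Foxp4 (-0.312) and Foxj3 (0.00532), as did 5 that had not passed, namely Foxa1 (-0.0275), Foxj1 (-0.141), Foxk1 (-0.145), Foxl2 (-0.249) and Foxn2 (0.0968). Size factors of DESeq2 in edgeR, total counts, no filter, halved counts and removal of the length trend kept the same 8.

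With 1 IP library left out there is no residual degree of freedom, so genes were counted by fold alone. Between the 2 libraries, enriched members numbered 11 to 14, depleted members 0 to 1, and the forkhead median ran from 0.663 to 0.738. Over all tested genes, 3940 to 4017 were past 2-fold upward and 3660 to 3671 downward. Without IP replicate 1, Foxc2 moved to 0.66 and Foxr2 to -0.05, and without IP replicate 2 Foxc2 moved to -2.35.

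No paired analysis was possible because a single Input library stood against 2 IP libraries. The Input has 1 library, so its own spread enters no p-value, and mates counted separately make the counting error larger than the counts imply.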
